A study of Arabidopsis thaliana with 4 samples.

Results

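Nuclear-encoded plastid ribosomal proteins were followed here at the 3′ ends of their mRNAs. The set holds 38 Arabidopsis thaliana loci, taken from a list of nuclear genes for proteins of the plastid ribosome, of which 25 belong to the large and 13 to the small subunit. Of these loci, 37 had reads in a table of 89792 reads at 8346 loci, and L9 (AT3G44890) had none in any library. The annotation names a ribosomal protein at each of the 38 loci except L24 and PSRP2, for which it gives a protein fold. The members held 1409 reads, or 1.57% of the table.

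The reads came from TAIL-seq, in which an adapter is ligated to the 3′ end of RNA and the tail is read from that end. There was 1 library for each of 4 genotypes, made from seedlings 2 weeks old grown on soil with 16 h of light and 8 h of darkness. The genotypes were urt1-1 xrn4-3, the double mutant; urt1-1 (Salk_087647C); xrn4-3 (SALK_014209); and WT, for which alone the labels give the ecotype, Col0. Each mutant is known here by a single insertion allele, and the labels do not say whether plants were pooled. The table names the double mutant by its initials, and it was matched to urt1 xrn4 because the other 3 names equal library titles.

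The plastid ribosome is of the bacterial type. Some of its proteins are made in the plastid, but most are encoded in the nucleus, translated on cytosolic ribosomes and imported, so their mRNAs meet the cytosolic enzymes of mRNA decay. URT1 is a terminal uridylyltransferase that adds U to the ends of oligoadenylated mRNAs, and XRN4 is the cytoplasmic exoribonuclease that degrades decapped mRNAs from the 5′ end. The comparisons address how far the tails of these mRNAs differ when either enzyme or both are mutated.

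The libraries held 26300 reads in urt1 xrn4, 43391 in urt1, 9797 in xrn4 and 10304 in WT, and the members held 415, 703, 144 and 147 of these in that order. A tracts in the table ran from 4 to 30 nt, so longer tails were not analysed here. With 1 library per genotype there was no test of genotypes. Every interval below is a 95% interval that covers counting error over reads only, and reads carry no molecular identifiers, so these intervals are too narrow where a tail was read repeatedly. No read of URT1 or XRN4 was listed in any library, so the table gives no check of the genotypes. Of 43 photosystem and light-harvesting genes, 42, 42, 40 and 40 were read in urt1 xrn4, urt1, xrn4 and WT, as in green tissue. In whole seedlings, fewer green cells and less RNA per cell cannot be told apart.

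Plastid ribosomal protein tails were uridylated less often than the tails of all other genes in each of the 4 libraries. Tails in the U category of the table were counted as uridylated. Among member reads, 25 of 415 were uridylated in urt1 xrn4, or 6.02% (exact Clopper-Pearson interval 3.94 to 8.76%). The count was 28 of 703 in urt1, or 3.98% (2.66 to 5.71%), and 39 of 144 in xrn4, or 27.1% (20 to 35.1%). WT had 17 of 147 member reads uridylated, or 11.6% (6.88 to 17.9%). The tails of all other loci were uridylated at 13.5% in urt1 xrn4, 6.92% in urt1, 40.4% in xrn4 and 32.0% in WT. The members minus the other loci gave -7.47 points in urt1 xrn4 (Newcombe interval of the difference -9.43 to -4.72). In urt1 and xrn4 the differences were -2.94 points (-4.18 to -1.21) and -13.3 points (-20 to -5.47). In WT the difference was -20.4 points (-24.8 to -14.2). With identical reads of a locus counted once, the members stood at 8.17, 7.26, 18.1 and 11.1% in urt1 xrn4, urt1, xrn4 and WT, and the other loci at 16.9, 10.5, 31.4 and 28.7%. Member tails were also longer, as given further on. At the uridylation of other loci of the same A length, their shares would have been 12.2% in urt1 xrn4, 5.53% in urt1, 29.3% in xrn4 and 26.4% in WT. The values for urt1 and xrn4 lie inside the intervals of the measured shares, of 2.66 to 5.71% and 20 to 35.1%, while those of urt1 xrn4 and WT lie above theirs.

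**Figure D1:**
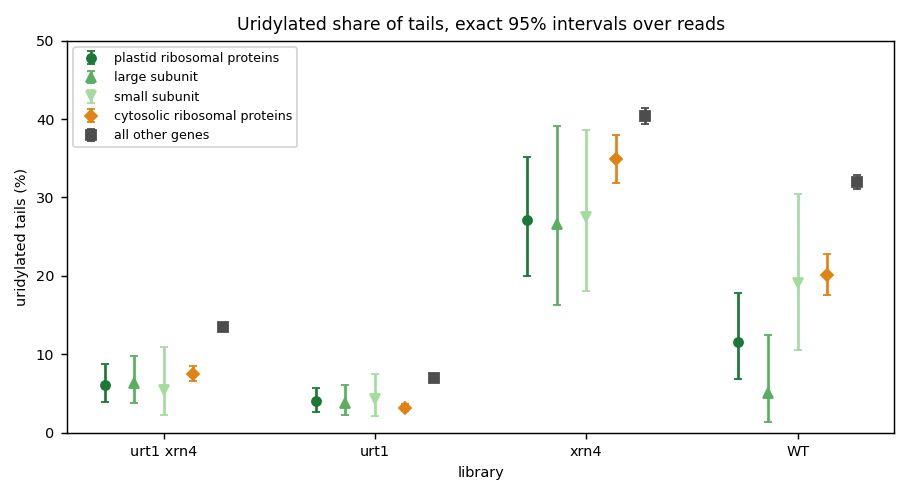
Uridylated share of tails (%, vertical axis) in the 4 libraries, for all plastid ribosomal protein members, their large and small subunit groups, cytosolic ribosomal proteins and all other genes; bars are exact 95% intervals over reads. The members lie below all other genes in every library, and their share is 27.1% in xrn4 against 11.6% in WT.

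Among the genotypes, member uridylation was 15.5 points higher in xrn4 than in WT (6.49 to 24.4), against 8.39 points for all other loci. In urt1 it was lower than in WT, at a difference of -7.58 points (-13.9 to -3.03), and that of the other loci was -25.1 points. In urt1 xrn4 the member difference from WT was -5.54 points (-12 to -0.52) and from xrn4 -21.1 points (-29.1 to -13.9), where the other loci gave -18.5 and -26.9 points. With identical reads counted once, the member differences from WT were -2.94 points in urt1 xrn4 (-10.8 to 3.54), -3.86 points in urt1 (-11.5 to 1.89) and 6.97 points in xrn4 (-2.79 to 17.1), and these 3 intervals include 0. That of urt1 xrn4 from xrn4 was then -9.91 points (-19.4 to -2.01). Without PSRP6 the difference of urt1 xrn4 from WT was -5.47 points (-12.7 to 0.31). Between urt1 xrn4 and urt1 the member difference was 2.04 points (-0.53 to 5.02), against 6.57 points for the other loci. The comparisons with WT share the 1 WT library, and both comparisons of single mutants with the double share the double library. Without S6, L1 and L3, the members with the most uridylated reads overall and left out after their values were seen, the xrn4 share was 12% and its difference from WT was 2.0 points (-6.09 to 10.8). The difference of urt1 xrn4 from xrn4 was then -7.08 points (-15.1 to -1.42). Without S1 and S6, likewise left out after their values were seen, the difference from WT turned to 0.63 points in urt1 xrn4 (-5.18 to 4.61) and was -1.58 points in urt1 (-7.20 to 1.82).

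Of the 37 members read, 24 had a uridylated read in any library and 13 had none. By library, it was 11 of 33 members read in urt1 xrn4, 15 of 37 in urt1, 8 of 26 in xrn4 and 8 of 31 in WT. Among all other loci read it was 1294 of 4033, 1178 of 5452, 947 of 2531 and 966 of 2671. Such counts depend on the reads per locus. In WT, S1 and S6 held 10 of the 17 uridylated reads. In xrn4, S6, L1 and S13 held 33 of 39. In urt1 xrn4, L4, L3 and PSRP4 held 17 of 25, and in urt1 the 28 lay on 15 members, with at most 5 on any of them. Among members with at least 5 tails, 59.3% of 27 had no uridylated tail in urt1 xrn4, 50% of 28 in urt1, 60% of 10 in xrn4 and 53.8% of 13 in WT. Over all loci with that many tails these percentages were 53.0, 62.2, 25.9 and 30.3. The median uridylated share per member was 0% in urt1 xrn4, 1.16% in urt1, 0% in xrn4 and 0% in WT, beside 0, 0, 50 and 28.6% over all such loci.

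**Figure D2:**
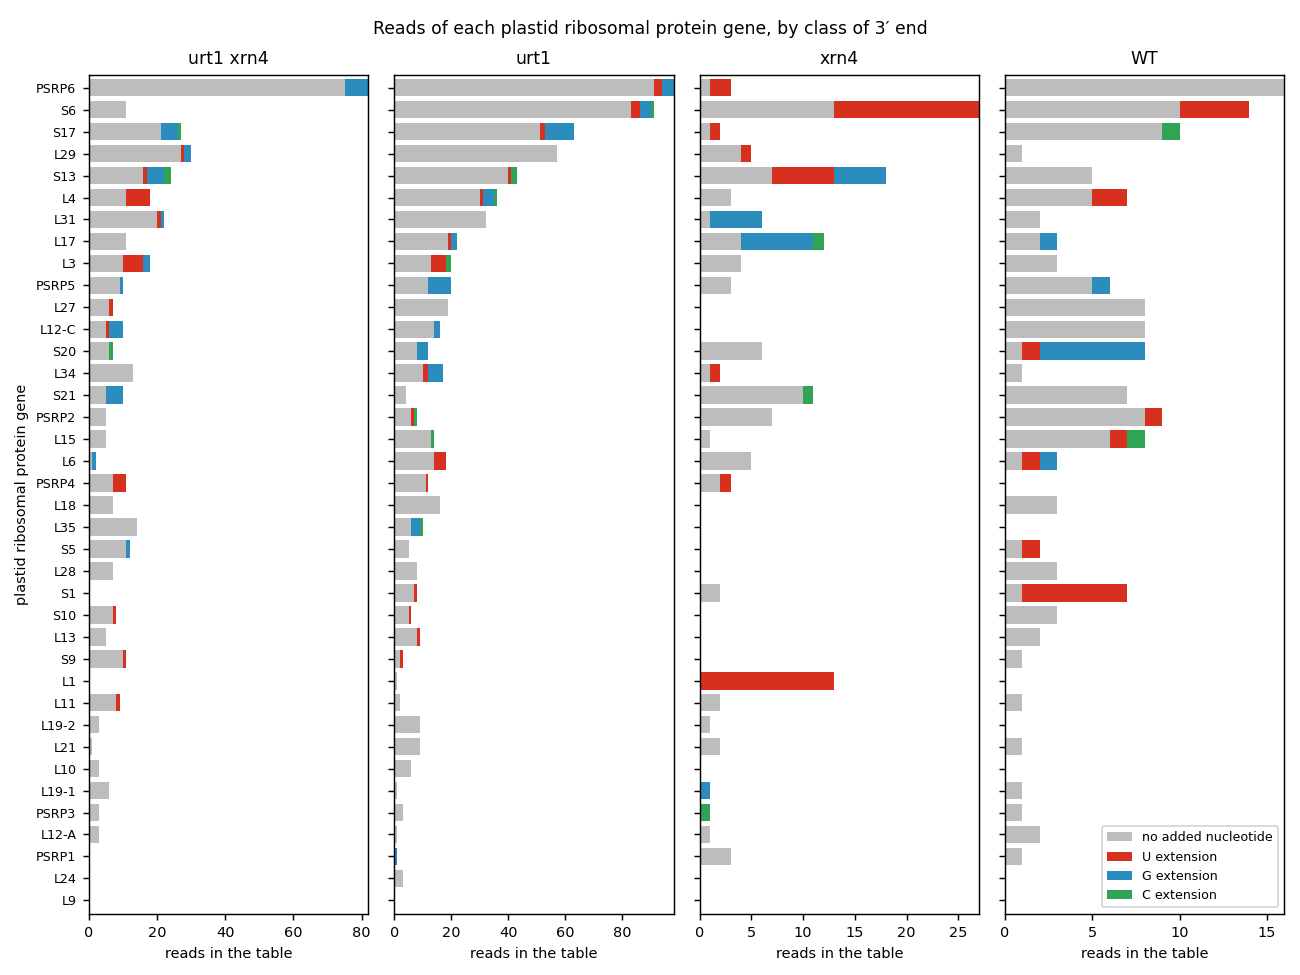
Reads of each of the 38 members (rows, ordered by reads over the 4 libraries) in urt1 xrn4, urt1, xrn4 and WT, with colours for reads with no added nucleotide and with U, G or C extensions; each panel has its own horizontal scale of reads. PSRP6 has the most reads in urt1 xrn4, urt1 and WT, S6 in xrn4, and the U extensions of xrn4 sit mainly on S6, L1 and S13.

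Some of the tails that carried these reads are printed here, since the pooled xrn4 and WT shares rest on them. Each is written 5′ to 3′ from the length of the A tract and the added bases in the table, with the added U in capitals and T written as U. Tails whose extension mixes U and A are left out, because no source says from which end extensions are written.
L1 in xrn4, 12 reads: aaaaaaaaaaaaUUUU
S6 in xrn4, 7 reads: aaaaaaaaaaaaUU
S6 in xrn4, 3 reads: aaaaaaaaaaaaUUU
S13 in xrn4, 3 reads: aaaaaaaaaaaaaaaaaaaaaaUU
S1 in WT, 4 reads: aaaaaaaaaaaaaUU
S6 in WT, 3 reads: aaaaaaaaaU
L3 in urt1, 3 reads: aaaaaaUU
PSRP6 in urt1, 3 reads: aaaaaaaaaaaUU
L29 in urt1 xrn4, 1 read: aaaaaaaaaaaaaUUUUU

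L1 (AT3G63490), the protein of the mobile stalk beside the tRNA exit site in bacteria, was read 13 times in xrn4, all uridylated (75.3 to 100%). It had 0 reads in urt1 xrn4, 1 in urt1 and 0 in WT. In CPM, the reads of a library scaled to a total of 1000000, L1 stood at 1327 in xrn4, where 3 reads, the limit a count of 0 allows, would be 114 CPM in urt1 xrn4 and 291 CPM in WT. The 13 reads held 2 distinct tails, with 12 A and UUUU in 12 reads, of which 5 came from 1 lane of the flow cell and 7 from the other, and 13 A and UUUU in the remaining read. Whether these are separate molecules was not tested.

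S6 (AT1G64510), a protein of the small subunit platform in bacteria, had 0 of 11 tails uridylated in urt1 xrn4, which allows up to 27.3%, and 3 of 91 in urt1, or 3.30% (0.69 to 9.33%). In xrn4 14 of its 27 tails were uridylated, or 51.9% (31.9 to 71.3%), and in WT 4 of 14, or 28.6% (8.39 to 58.1%). The uridylated S6 reads of xrn4 held 6 distinct tails and those of WT 2. The difference of xrn4 from WT was 23.3 points (-8.33 to 47.5), that of urt1 from WT -25.3 points (-51.4 to -7.40), that of urt1 xrn4 from WT -28.6 points (-54.6 to 2.31) and that of urt1 xrn4 from xrn4 -51.9 points (-69.3 to -20.4). The interval includes 0 for xrn4 from WT and for urt1 xrn4 from WT.

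S1 (AT5G30510), which binds mRNA at the small subunit in bacteria, had 6 of 7 tails uridylated in WT (42.1 to 99.6%), on 3 distinct tails. It had 0 reads in urt1 xrn4, 1 of 8 uridylated in urt1 and 0 of 2 in xrn4. S13 (AT5G14320), a protein of the small subunit head that contacts the large subunit in bacteria, had 1 of 24 tails uridylated in urt1 xrn4, 1 of 43 in urt1, 6 of 18 in xrn4 and 0 of 5 in WT. Its difference between urt1 xrn4 and xrn4 was -29.2 points (-52.3 to -5.73).

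PSRP6 (AT5G17870), a large subunit protein with no bacterial counterpart, had 0 of 82 tails uridylated in urt1 xrn4, which allows up to 3.66%. It had 3 of 98 in urt1, or 3.06% (0.64 to 8.69%), 2 of 3 in xrn4, and 0 of 16 in WT, which allows up to 18.8%. S17 (AT1G79850), an early rRNA-binding protein of the small subunit in bacteria, had 0 of 27 in urt1 xrn4, 2 of 63 in urt1, 1 of 2 in xrn4 and 0 of 10 in WT. L29 (AT5G65220), which sits at the exit of the peptide tunnel in bacteria, had 1 of 30 in urt1 xrn4, 0 of 57 in urt1, 1 of 5 in xrn4 and 0 of 1 in WT. These much-read members therefore added few uridylated reads to any library.

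In urt1 xrn4, 18 of the 25 uridylated reads were of large subunit members, which held 286 of the 415 member reads. L4 (AT1G07320), which lines the peptide tunnel in bacteria, had 7 of 18 tails uridylated in urt1 xrn4, or 38.9% (17.3 to 64.3%), 1 of 36 in urt1, 0 of 3 in xrn4 and 2 of 7 in WT. Its difference between urt1 xrn4 and urt1 was 36.1 points (14.3 to 58.7). L3 (AT2G43030), an early assembly protein of the large subunit in bacteria, had 6 of 18 in urt1 xrn4, or 33.3% (13.3 to 59.0%), and 5 of 20 in urt1, or 25% (8.66 to 49.1%), with 0 of 4 in xrn4 and 0 of 3 in WT. PSRP4 (AT2G38140), a plastid-specific protein of the small subunit, had 4 of 11 in urt1 xrn4, 1 of 12 in urt1, 1 of 3 in xrn4 and 0 reads in WT. Without L3, L4 and PSRP4, left out after their values were seen, the urt1 xrn4 share of the members was 2.2% (0.94 to 4.24%).

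Counts of members past a difference of 10 points were read against all loci with at least 10 tails in both libraries. Few members reached that depth. In urt1 over WT it was S6, S17 and PSRP6, of which S6 was at least 10 points lower and none higher, beside 54.5 and 2.8% of 143 loci. In xrn4 over WT it was S6 alone, which was at least 10 points higher, beside 51.2% of 80 loci, where 22.5% were lower. For urt1 xrn4 over WT, S6 of the same 3 members was lower and none higher, beside 49.6 and 5.6% of 125 loci. With urt1 xrn4 over xrn4, S6 and S13 of 4 members were lower and none higher, beside 57.9 and 12.8% of 133 loci, and L17 and S21 had no uridylated tail in either library. Between urt1 xrn4 and urt1, 14 members were compared. L4, PSRP4 and L12-C were at least 10 points higher, beside 26.7% of 415 loci, and L34 at least 10 points lower, beside 7.47%. The L12-C difference rested on 1 read of 10 against 0 of 16, and the L34 difference on 0 of 13 against 2 of 17.

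The subunits differed in WT. Large subunit members had 6.29% of tails uridylated in urt1 xrn4, 3.83% in urt1, 26.6% in xrn4 and 5.06% in WT (4 of 79 reads). Small subunit members had 5.43% in urt1 xrn4, 4.25% in urt1, 27.5% in xrn4 and 19.1% in WT (13 of 68 reads). Large minus small was -14.1 points in WT (-25.4 to -3.56) and within 1 point in the other 3 libraries, with intervals that include 0. Without S1 and S6, left out after their values were seen, the small subunit share in WT was 6.38% (3 of 47 reads) and that of all members 5.56%. The like shares in xrn4 rest on repeated reads, since L1 held 13 of the 17 uridylated large subunit reads there. Without S6 and L1 the xrn4 shares were 7.84% (4 of 51 reads) for the large and 15.1% (8 of 53 reads) for the small subunit. With identical reads counted once they were 11.4 and 24% in xrn4.

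The composition of the added bases differed between libraries. Of the uridylated member tails, 72.0% in urt1 xrn4, 71.4% in urt1, 20.5% in xrn4 and 58.8% in WT carried a single U. All other loci had 52.4, 69.3, 24.5 and 32.6% in the same libraries. The exact intervals of the member shares were 9.30 to 36.5% in xrn4 and 32.9 to 81.6% in WT, which overlap. In xrn4, S6 and L1 held 27 of the 39 uridylated reads and all 13 L1 reads had 4 U, so the low share of single U there depends on these members. The number of U was counted also in extensions that mix U and A. Of the 18 member tails with a single U in urt1 xrn4, 7 had U alone and 11 had U and A. At least 3 U were carried by 4 of 25 in urt1 xrn4, or 16.0%, 1 of 28 in urt1, or 3.57%, 16 of 39 in xrn4, or 41.0% (25.6 to 57.9%), and 0 of 17 in WT, which allows up to 17.6%. For all other loci these shares were 18.5, 8.73, 35.2 and 21.3%. Of the 16 in xrn4, 13 were the L1 reads and 3 were S6 reads. Without S6, L1 and L3 none of 12 uridylated reads had at least 3 U, so the xrn4 value rests on L1 and S6. U and A were mixed in 15 of 25 extensions in urt1 xrn4, or 60% (38.7 to 78.9%), against 8 of 28 in urt1, 4 of 39 in xrn4 and 1 of 17 in WT. The share among all other loci was 26.6% in urt1 xrn4, 29.3% in urt1, 17.7% in xrn4 and 13.1% in WT. L4 and L3, with 6 reads each, held 12 of the 15 mixed extensions of urt1 xrn4, on 3 and 2 distinct tails.

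**Figure D3:**
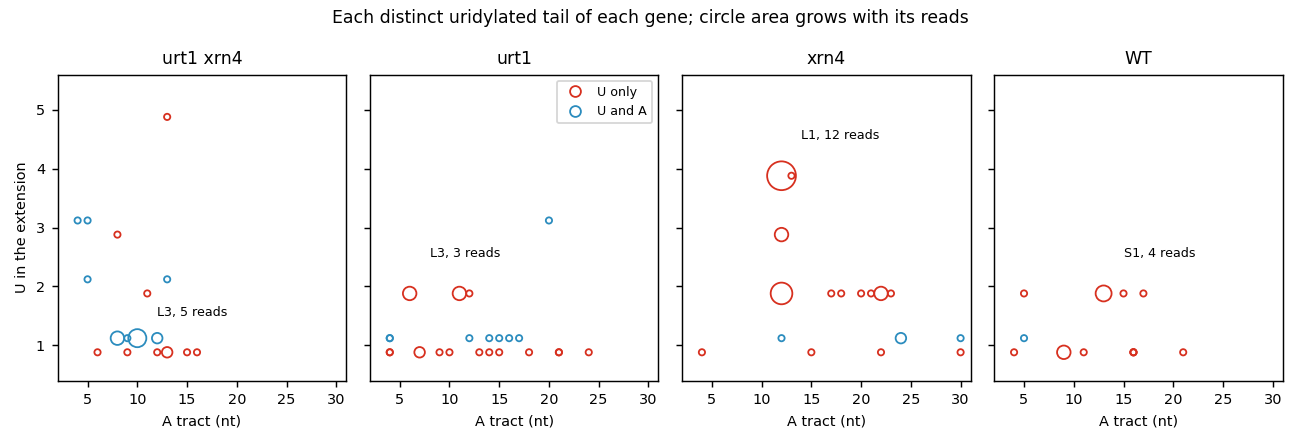
Each distinct uridylated member tail by its A tract (nt, horizontal axis) and number of U (vertical axis), in urt1 xrn4, urt1, xrn4 and WT; circle area grows with reads, and red (U only) and blue (U and A) circles are set slightly below and above the whole number of U. The L1 tail with 12 reads and 4 U stands apart in xrn4, and mixed extensions make up 15 of 25 reads in urt1 xrn4.

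G extensions, a category the table keeps apart, were found on 34 of 415 member tails in urt1 xrn4, or 8.19%, on 47 of 703 in urt1, or 6.69%, on 18 of 144 in xrn4, or 12.5% (7.58 to 19.0%), and on 9 of 147 in WT, or 6.12% (2.84 to 11.3%). All other loci had 5.97, 5.93, 5.49 and 4.91% in the same libraries. In xrn4, L17 had 7 of the 18, L31 5 and S13 5, and in WT S20 had 6 of the 9. C extensions numbered 4, 9, 3 and 2 in urt1 xrn4, urt1, xrn4 and WT.

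Averaged over reads, A tracts of the members were longer than those of all other loci in each library, by little in urt1 xrn4 once PSRP6 was left out. The mean A tract of member tails was 15.3 ± 6.03 nt (SD over reads) in urt1 xrn4, 16.7 ± 5.18 nt in urt1, 17.6 ± 5.79 nt in xrn4 and 17.9 ± 5.97 nt in WT. The other loci averaged 14.3, 14.9, 13.7 and 15.5 nt. Members minus others was 0.97 nt in urt1 xrn4 (SE over reads 0.30), 1.75 nt in urt1 (0.20), 3.84 nt in xrn4 (0.49) and 2.47 nt in WT (0.50). PSRP6 held 82 of the 415 urt1 xrn4 reads, and without it the member mean there was 14.7 nt, against 14.3 nt for the other loci. Of members with at least 5 tails, 17 of 27 in urt1 xrn4, 19 of 28 in urt1, 9 of 10 in xrn4 and 10 of 13 in WT had a mean above the median of all such loci. The difference was also present among tails with no added base, which averaged 16.1, 17.2, 18.7 and 19.3 nt for the members against 15.2, 15.4, 15.9 and 17.2 nt for the other loci. Tails of 26 to 30 A made up 5.30% of member tails in urt1 xrn4, 6.12% in urt1, 11.8% in xrn4 and 14.3% in WT. The other loci had 5.02, 5.05, 5.05 and 6.97%. Tails of 4 to 9 A made up 17.6, 8.96, 7.64 and 8.84% of member tails, against 24.8, 19.9, 27 and 18.1% of the others.

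**Figure D4:**
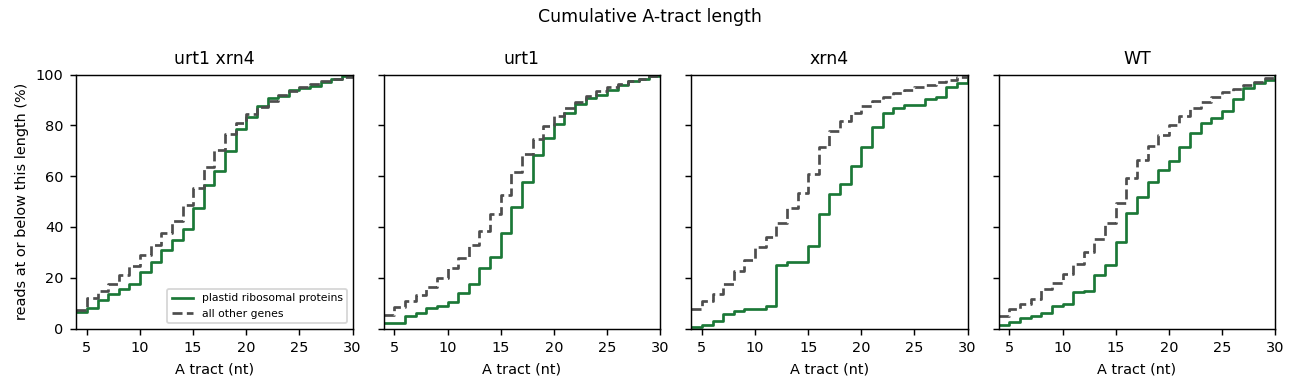
Cumulative share of reads (%, vertical axis) by A-tract length (nt, horizontal axis) for plastid ribosomal protein members (solid) and all other genes (dashed) in the 4 libraries. The member curve lies to the right of the other genes over most lengths, most widely in xrn4, where the mean is 3.84 nt longer; its step at 12 A holds the L1 and S6 reads.

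Between genotypes, the mean member tract was shorter in urt1 xrn4 than in WT (difference -2.63 nt, SE over reads 0.57), in xrn4 (-2.28 nt, SE 0.57) and in urt1 (-1.37 nt, SE 0.35). The urt1 library differed from WT by -1.26 nt (SE 0.53) and xrn4 from WT by -0.34 nt (SE 0.69). The other loci differed by -1.13, 0.58, -0.58, -0.54 and -1.71 nt in the same order. The tract of the members was therefore shorter in urt1 xrn4 than in xrn4, while that of the other loci was 0.58 nt longer.

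Single members behind these means were few. PSRP6 averaged 17.7 ± 4.82 nt in urt1 xrn4 (82 tails), 16.2 ± 3.66 nt in urt1 (98 tails) and 20.7 ± 3.52 nt in WT (16 tails). Its difference from WT was -4.44 nt in urt1 (SE over reads 0.95) and -3.02 nt in urt1 xrn4 (SE 1.03). Between urt1 xrn4 and urt1, 6 of 14 members were at least 2 nt shorter in the double mutant, beside 26% of 415 loci, and L35 was at least 2 nt longer, beside 15.2%. The shorter members were L29, L3, PSRP4, L17, L34 and S17. PSRP4 averaged 11 nt in urt1 xrn4 against 19.8 nt in urt1 (11 and 12 tails), and L17, near the tunnel exit in bacteria, 10 nt against 17.5 nt (11 and 22 tails). L3 averaged 9.17 nt against 14.7 nt (18 and 20 tails), and L29 13.5 nt against 17.5 nt (30 and 57 tails). Set against xrn4, S21, L17 and S13 of 4 members were at least 2 nt shorter in urt1 xrn4, beside 21.1% of 133 loci, and S6 longer, beside 24.8%. S21 (AT3G27160), a small protein with a part in initiation in bacteria, averaged 11.7 nt in urt1 xrn4 against 19.7 nt in xrn4 (10 and 11 tails). In urt1 over WT and in urt1 xrn4 over WT, PSRP6 alone of 3 members was at least 2 nt shorter, beside 32.2 and 40% of loci, and none was longer, beside 9.09 and 11.2%. In xrn4 over WT S6 was shorter, beside 53.8% shorter and 6.25% longer of 80 loci, at 15.1 nt in xrn4 against 19.6 nt in WT.

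The members together took a like share of reads in the 4 libraries. Their summed level was 15779 CPM in urt1 xrn4, 16202 in urt1, 14698 in xrn4 and 14266 in WT. The log2 ratio of these sums was 0.18 in urt1 over WT (exact conditional binomial interval -0.07 to 0.45), 0.04 in xrn4 over WT (-0.30 to 0.38) and 0.15 in urt1 xrn4 over WT (-0.13 to 0.43). It was 0.10 in urt1 xrn4 over xrn4 (-0.17 to 0.39) and -0.04 in urt1 xrn4 over urt1 (-0.22 to 0.14). With identical reads counted once the ratio of urt1 over WT was -0.076, and without PSRP6 that of urt1 xrn4 over xrn4 was -0.18. Scaling by TMM would add 0.82 to every log2 ratio of urt1 over WT, 0.06 for xrn4 over WT, 0.42 for urt1 xrn4 over WT and 0.38 over xrn4, and -0.21 over urt1. With that scaling the sum of urt1 over WT was 1.00, so directions below hold relative to the table total.

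Reads were uneven between members. PSRP6 had 199 reads over the 4 libraries, S6 143 and S17 102, together 31.5% of member reads, while the median member had 26. Of the members, 31 had at least 10 reads and 6 had fewer, and 21 were read in all 4 libraries. The number of members read was 33 in urt1 xrn4, 37 in urt1, 26 in xrn4 and 31 in WT, and it goes with library size. L12-A and L12-C are near-identical copies of the stalk protein that recruits translation factors, and L19-1 and L19-2 are also 2 loci for 1 protein. Whether reads were split between such copies was not tested, so the counts of these 4 loci are uncertain.

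Members were compared in share of reads where the libraries held at least 20 reads together, with 0.5 added to each count. In urt1 over WT, 15 members could be compared. L29 and L31 were at least 2-fold higher, beside 28.2% of 440 loci, and S20, L15 and L12-C at least 2-fold lower, beside 12.5%. L29 had 57 reads in urt1 against 1 in WT, a log2 ratio of 3.19 (1.22 to 9.09), and L31, at the contact of the subunits in bacteria, 32 against 2, at 1.63 (-0.04 to 5.03). S20 had 12 against 8 (-1.52, -2.90 to 0.01), L15 14 against 8 (-1.30, -2.62 to 0.19) and L12-C 16 against 8 (-1.12, -2.38 to 0.36). The interval thus excluded 0 for L29 alone of the 15 members. By the same rule, 96 of the 440 loci had an interval wholly above 0, and 42 had one wholly below 0. The members' median was 0.48, against 0.31 over all loci compared. The minimum of 20 reads lets members in mainly through the deeper urt1 library. Neither this median nor the counts are therefore read as a result for the whole set. With TMM scaling, which moves every locus alike, 10 members were past 2-fold, all higher, beside 54.1% of all loci higher and 3.41% lower.

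In xrn4 over WT, S6 and S13 were the members with enough reads. S13 had 18 reads in xrn4 against 5 in WT, a log2 ratio of 1.82 (0.44 to 3.71), which is past 2-fold, beside 18.8% of 138 loci. S6 had 27 against 14, at 1.00 (0.04 to 2.07), just under that limit. With TMM scaling both were past it, beside 19.6% of all loci. Because only members with high counts in these shallow libraries could enter, no count over the members is read from this comparison.

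In urt1 xrn4 over WT, 8 members could be compared. L29, L31 and L3 were at least 2-fold higher, beside 33% of 315 loci, and S6 at least 2-fold lower, beside 13%. L29 had 30 reads in urt1 xrn4 against 1 in WT (log2 ratio 2.99, 0.97 to 8.91), L31 22 against 2 (1.82, 0.08 to 5.24) and L3 18 against 3 (1.05, -0.54 to 3.64). PSRP6, with 82 against 16, stood just under 2-fold at 0.97 (0.22 to 1.88). S6 had 11 against 14, at -1.69 (-2.98 to -0.45), on 10 and 8 distinct tails. The median was 0.89, against 0.50 over all loci compared. With TMM scaling 5 members were higher and 1 lower, beside 46.7 and 6.98% of all loci. The read minimum lets members in mainly through the deeper urt1 xrn4 library, which held most reads of L29, L31 and L3. Over all members the summed log2 ratio was 0.15 (-0.13 to 0.43). Neither the median nor the counts of this comparison are therefore read as a result for the whole set.

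In urt1 xrn4 over xrn4, 10 members could be compared. The minimum of 20 reads lets a member in through the library where it is high, and no count over the members is read here. PSRP6, S17 and L29 were at least 2-fold higher, beside 34.3% of 327 loci, and S6, S21, L17 and S13 at least 2-fold lower, beside 18.3%. PSRP6 had 82 reads in urt1 xrn4 against 3 in xrn4, a log2 ratio of 3.13 (1.75 to 5.66), and S17 27 against 2, at 2.03 (0.34 to 5.45). L29 had 30 against 5, at 1.05 (-0.22 to 2.88). S6 had 11 against 27, at -2.68 (-3.88 to -1.66), S21 10 against 11, at -1.56 (-2.96 to -0.19), L17 11 against 12, at -1.54 (-2.87 to -0.24), and S13 24 against 18, at -1.02 (-1.95 to -0.04). With TMM scaling 4 were higher and 3 lower, beside 41% and 11% of all loci.

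In urt1 xrn4 over urt1, the deepest pair, 17 members could be compared and 14 were within 2-fold. L35 was at least 2-fold higher, beside 14.4% of 598 loci, and S6 and L6 at least 2-fold lower, beside 13.7%. S6 had 11 reads in urt1 xrn4 against 91 in urt1, a log2 ratio of -2.27 (-3.38 to -1.42), on 10 and 27 distinct tails. L6 had 2 against 18, at -2.17 (-5.60 to -0.39), and L35 14 against 10, at 1.19 (-0.07 to 2.54). PSRP6, with 82 against 98, had a ratio of 0.47 (0.02 to 0.90). The members' median was -0.19, against 0.03 over all loci compared, and with TMM scaling 0 were higher and 2 lower, beside 11% and 18.4% of all loci. Here too the read minimum can let a member in through the library where it is high, as with S6 and L6 in urt1. The median and the counts of this comparison are therefore not read as a result for the whole set.

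**Figure D5:**
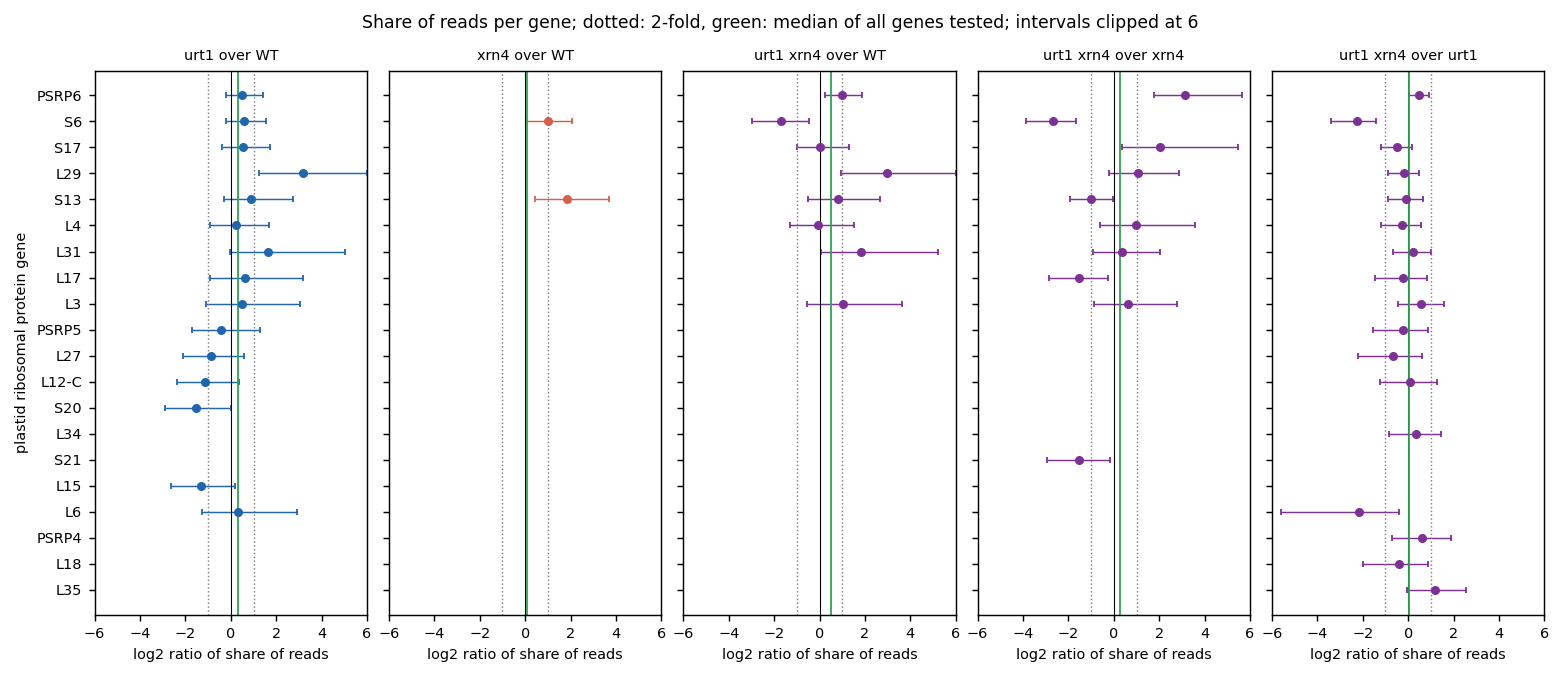
Log2 ratio of the share of reads (horizontal axis) of each member with at least 20 reads in the 2 libraries of a comparison, with exact 95% intervals over reads; dotted lines mark 2-fold and the green line the median of all genes tested. S6 lies at 1.00 in xrn4 over WT, and at -1.69, -2.68 and -2.27 where urt1 xrn4 is set over WT, over xrn4 and over urt1. Repeated reads are all counted, and the S6 reads held 10, 27, 11 and 8 distinct tails in urt1 xrn4, urt1, xrn4 and WT.

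In urt1 xrn4 over xrn4, the summed log2 ratio of the large subunit members was 0.74 (0.34 to 1.15), and that of the small subunit members was -0.74 (-1.15 to -0.31). Both intervals reached 0 without 1 member, since without PSRP6 the large subunit ratio was 0.32 (-0.10 to 0.75), and without S6 the small subunit ratio was -0.27 (-0.75 to 0.23). Over WT, the large subunit ratio of urt1 xrn4 was 0.50 (0.14 to 0.88) and the small -0.43 (-0.86 to 0.02), and without PSRP6 the large subunit interval reached 0, at 0.34 (-0.07 to 0.77).

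The members not yet given in full are described by their reads in urt1 xrn4, urt1, xrn4 and WT, in that order. Of the large subunit, L34 had 13, 17, 2 and 1 reads, L27, which reaches the peptidyl transferase centre in bacteria, 7, 19, 0 and 8, and L18 7, 16, 0 and 3. L31 had 22, 32, 6 and 2, L17 11, 22, 12 and 3, and L12-C 10, 16, 0 and 8. L17 was thus relatively frequent in xrn4, where L12-C, L27 and L18 were not read. L6 had 2, 18, 5 and 3 reads and L15 5, 14, 1 and 8. L35 had 14, 10, 0 and 0, L28 7, 8, 0 and 3, and L13 5, 9, 0 and 2. L35 was thus read only in the 2 deeper libraries. L11, of the site where translation factors bind in bacteria, had 9, 2, 2 and 1 reads, L21 1, 9, 2 and 1, and L19-2 3, 9, 1 and 0. PSRP5, plastid-specific and of the large subunit, had 10, 20, 3 and 6 reads. Of the small subunit, S20 had 7, 12, 6 and 8 reads and S21 10, 4, 11 and 7. PSRP2 had 5, 8, 7 and 9 reads, S5 12, 5, 0 and 2, S10 8, 6, 0 and 3, and S9 11, 3, 0 and 1. PSRP2 thus had 5 to 9 reads in each library although the libraries differ in depth. The 6 members under 10 reads were L10, L12-A, L19-1, L24, PSRP1 and PSRP3, each with at most 6 reads in any library.

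Genes that work with the plastid ribosome, or that encode its cytosolic counterpart, were set beside the members. Cytosolic ribosomal proteins (203 loci) had 7.5% of tails uridylated in urt1 xrn4, 3.14% in urt1, 34.9% in xrn4 and 20.1% in WT. Members minus cytosolic ribosomal proteins was -1.47 points in urt1 xrn4 (-3.61 to 1.37), 0.84 in urt1 (-0.47 to 2.61), -7.81 in xrn4 (-15.1 to 0.51) and -8.52 in WT (-13.5 to -1.87). The interval excluded 0 in WT alone. In A-tract length the members exceeded them by 0.01 nt in urt1 xrn4 (SE over reads 0.31), 0.74 nt in urt1 (0.21), 2.87 nt in xrn4 (0.51) and 1.23 nt in WT (0.53). Photosystem and light-harvesting genes, whose products also work in the plastid, had 11.8% of tails uridylated in urt1 xrn4, 7.67% in urt1, 32.9% in xrn4 and 21.3% in WT. Cytosolic ribosomal proteins summed to a log2 ratio of 0.54 in urt1 over WT (0.44 to 0.64), where the members had 0.18.

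Plastid translation factors (13 loci, 12 read) were uridylated at 29.7% in urt1 xrn4 (22 of 74 reads), 11% in urt1 (11 of 100), 36.8% in xrn4 (14 of 38) and 44.2% in WT (19 of 43). These shares were higher than those of the members in each library, with intervals that overlap in urt1 and xrn4. With identical reads counted once they were 28.6, 7.84, 22.2 and 37.5% in urt1 xrn4, urt1, xrn4 and WT. The members then had 8.17, 7.26, 18.1 and 11.1%, so the shares in urt1 were close. RABE1b (AT4G20360), the plastid elongation factor Tu, had 12 of 49 tails uridylated in urt1 xrn4, 10 of 68 in urt1, 5 of 16 in xrn4 and 3 of 9 in WT. SCO1 (AT1G62750), the plastid elongation factor G, had 8 of 8, 1 of 15, 8 of 14 and 10 of 17 in the same order. In share of reads SCO1 was lower in urt1 than in WT (log2 ratio -2.25, -3.36 to -1.16), in urt1 xrn4 than in WT (-2.39, -3.86 to -1.15) and in urt1 xrn4 than in xrn4 (-2.20, -3.69 to -0.88). Plastid rRNA processing and assembly factors (10 loci, 8 read) had 4 of 24 reads uridylated in urt1 xrn4, 4 of 58 in urt1, 11 of 14 in xrn4 and 7 of 20 in WT. All 10 reads of RIF10 (AT3G03710), the plastid polynucleotide phosphorylase, in xrn4 were uridylated, and they held 1 distinct tail. Of 3 further plastid ribosomal protein loci outside the set, the L5 gene (AT4G01310) had 7, 15, 1 and 0 reads in urt1 xrn4, urt1, xrn4 and WT, and the other 2 had none.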

How the data were processed

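The deposited table lists 1 read per line and, per the file headers, gives the library, A-tract length, added nucleotides, 3′-end category and locus; its other values are lengths in nt and letters, with no counts or normalised values deposited by the authors. The submitters' processing notes name the build TAIR10 and, with no order or role, Bowtie2, TopHat2 2.0.9, bedtools 2.17.5 and CASAVA 1.8.2. Filters, mapping settings and the reason for the range of 4 to 30 A are not given in the sources used here. All 4 libraries were read on both lanes of 1 flow cell. Where nothing says that samples came from separate plants, values describe these libraries only.

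Members were found by locus, and all 38 matched RefSeq annotation of TAIR10.1, used for names only. The members, lists and alternatives were chosen with earlier results of these data known. Reads were counted per locus and library in pandas 2.3.3 under Python 3.11.15, intervals came from scipy 1.17.1 and numpy 2.4.6, and matplotlib 3.10.9 drew the figures. Shares have exact Clopper-Pearson intervals, differences of shares Newcombe intervals, and ratios of reads exact conditional binomial intervals, each at 95%. What a count of 0 allows is instead given as the share that 3 reads would make. That limit is below the exact upper one, as with 3.66 against 4.4% for PSRP6 in urt1 xrn4. Levels are reads scaled to a library total of 1000000 (CPM). Per-locus tail values need at least 10 tails, and ratios at least 20 reads, in the libraries compared. Every member with at least 10 reads is named with its reads. Related lists were plastid translation factors, rRNA processing and assembly factors, further plastid ribosomal protein loci, cytosolic ribosomal proteins (218 listed, 203 kept by their annotation) and photosystem genes. Alternatives were identical reads counted once, other tail filters, scalings and read minimums, single lanes, and members left out. The interval and ratio steps were tested on simulated reads drawn independently. Repeated reads of 1 tail were not simulated, so the simulation does not show how the intervals hold for them.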

Additional observations from a re-analysis of the deposited data

Results flagged for a closer look

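S6 (AT1G64510), a small subunit protein, differed in direction between the same contrast of XRN4 genotypes made with and without the urt1 allele. Its share of reads was lower in urt1 xrn4 than in urt1, with 11 reads against 91 and a log2 ratio of -2.27. It was higher in xrn4 than in WT, with 27 reads against 14 and a log2 ratio of 1.00 (0.996). The S6 reads held 10 distinct tails in urt1 xrn4 against 27 in urt1, and 11 in xrn4 against 8 in WT. The size of these ratios therefore depends on repeated reads, and no ratio of single members was computed with identical reads counted once. Each contrast has 1 library per genotype, and the difference between them was not tested.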

How the results depend on the processing

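No paired analysis was possible because there is 1 library per genotype. Of 152 values recomputed under an alternative for the main results, 108 stayed within their counting interval (or within 1.5 times a count), 43 moved further, and 1, whose interval had excluded 0, changed sign. A change of sign was counted only where the main interval had excluded 0, and some values whose interval included 0 also crossed 0. Each lane alone gave values inside the intervals. The member uridylated share in urt1 xrn4 was 2.41% with extensions of U alone and 2.2% without L3, L4 and PSRP4. In urt1 it was 7.26%, and in xrn4 18.1%, with identical reads counted once; in xrn4 it was 12% without S6, L1 and L3, and in WT 5.56% without S1 and S6. The one counted as a change of sign was the difference of urt1 xrn4 from WT, at 0.63 points without S1 and S6. The difference of urt1 from WT was then -1.58 points. Without L3, L4 and PSRP4, urt1 xrn4 minus urt1 was -1.13 points. The difference of xrn4 from WT was 2.0 points without S6, L1 and L3. That of urt1 xrn4 from xrn4 was -9.91 points with identical reads counted once and -7.08 points without those 3 members. The xrn4 share of uridylated tails with 3 or more U was 17.6% and 0% under the same settings.

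Mean A length with identical reads counted once was 16.2 nt in urt1 xrn4 and 17.1 nt in urt1, and in urt1 xrn4 it was 14.7 nt without PSRP6. In xrn4 it was 19.2 nt without S6, L1 and L3. Tails with no added base averaged 16.1, 17.2, 18.7 and 19.3 nt in urt1 xrn4, urt1, xrn4 and WT. The summed log2 share of reads of urt1 over WT was 1.00 with TMM scaling, 0.48 with the median of ratios and -0.076 with identical reads counted once. With TMM and the median of ratios it was 0.57 and 0.51 for urt1 xrn4 over WT, 0.48 and 0.58 over xrn4, and -0.25 and -0.27 over urt1. Without PSRP6 it was -0.18 for urt1 xrn4 over xrn4. With a minimum of 10 reads, the members past 2-fold numbered 11 of 25 compared for urt1 over WT, 6 of 10 for xrn4 over WT, 14 of 25 for urt1 xrn4 over WT, 15 of 21 over xrn4 and 9 of 29 over urt1, beside 53.8, 58.9, 57, 65.2 and 44.3% of all loci. With a minimum of 50 reads they numbered 1 of 4, 0 of 0, 0 of 1, 1 of 1 and 1 of 7, beside 31.6, 5.56, 33.7, 40.7 and 18.6%. With TMM scaling they numbered 10 for urt1 over WT and 2 for xrn4 over WT. Fewer or more members enter with another minimum; the cause of the other changes was not tested. Depth limits most statements on single members, since 12 of 38 had 0 reads in xrn4 and 7 in WT.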
